A study of Solanum lycopersicum with 6 samples.

Results

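RIN, NOR, TDR4 and TAGL1 are transcription factor genes of the tomato ripening programme, and their transcript levels were read in mature green fruit of drought-stressed and control plants. Each gene was represented by 1 probe set, taken as every probe set whose platform annotation carries exactly that symbol. They are 4 of the 802 gene symbols that the annotation gives to the 10101 probe sets tested. The fruit came from Micro-Tom, a dwarf tomato cultivar, with 3 arrays for plants labelled as grown under drought and 3 for plants labelled as grown under normal conditions. All plants stood in a greenhouse, at 25 °C in daylight hours and 20 °C later, and fruit was taken 30 to 40 days after flowering. Both groups received a liquid fertilizer diluted 500 times, which the drought plants were given once a week. Water and nutrient supply were therefore varied together, and no genotype differed between the groups. Nothing in the labels says whether an array held fruit of 1 plant or of several, or whether the arrays of a group came from separate plants. The p-values then measure only the spread between these arrays, which may be technical.

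RIN, or RIPENING INHIBITOR, is a MADS-box transcription factor of the SEPALLATA class, and the rin mutation leaves tomato fruit green and firm. NOR, or NON-RIPENING, is a NAC-domain transcription factor whose mutation likewise blocks ripening. TDR4 belongs to the FRUITFULL class of MADS-box genes, and TAGL1 to the AGAMOUS class, where it takes part in fruit expansion as well as ripening. MADS-box proteins bind DNA as dimers and larger complexes, and RIN has been found in such complexes with the FRUITFULL-class and AGAMOUS-class proteins of tomato. At the mature green stage a fruit has reached its full size and the ripening programme has not yet come on. By the label of the fruit, these levels describe it before colour change.

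The values were deposited as normalized probe set summaries and are taken as log2, and most of them were almost the same on every array. The median range over the 6 arrays was 0.00013, and the range exceeded 0.1 in 268 probe sets. The 69 bacterial and phage control probe sets, which match no tomato gene, had a median range of 1.1e-05 and ranges of up to 0.00047. A difference on this scale may therefore not equal a fold change at the scanner. Differences of group means are set beside that largest range below only to show their size. A difference of means and a range over 6 arrays are unlike measures. Among the arrays, control replicate 3 resembled the drought arrays (r of 0.9990 to 0.9992 across probe sets, which are not replicates) more than it resembled the other controls (0.9960 and 0.9970). Some results are therefore also given without it.

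**Figure D1:**
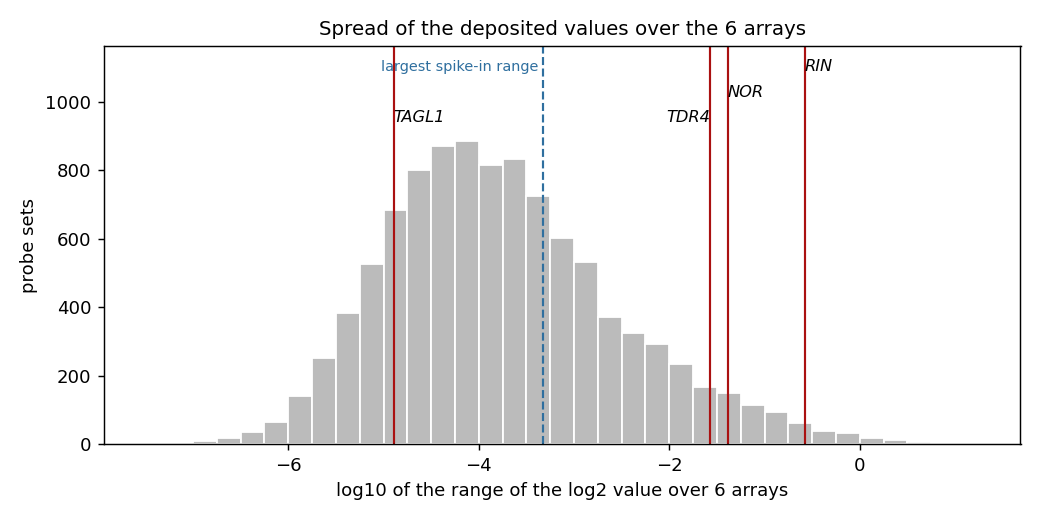
Number of probe sets (y axis) by the log10 of the range of their log2 value over the 6 arrays (x axis), with red lines at RIN, NOR, TDR4 and TAGL1 and a dashed line at the largest range of a control probe set for bacterial and phage transcripts. RIN (range 0.27) lies far to the right, NOR (0.041) and TDR4 (0.027) lie right of the dashed line, and TAGL1 (1.3e-05) lies left of it.

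The tissue label was set against marker genes found by symbol. Of the chlorophyll-binding protein genes, which mark green tissue, CAB6A stood at 10.69 ± 0.0034 in drought fruit and 10.70 ± 0.0033 in control fruit (SD, n = 3 each), above at least 91.3% of the probe sets of every array. CAB4 lay above 79.9% to 80.8% and CAB5 above 35.9% to 40.2%, so the 3 matched green tissue genes ran from middling to bright. The ripe fruit markers ran from dim to bright, with more of them below the middle of the arrays than above it. The polygalacturonase gene PG2, whose product breaks down pectin in ripe fruit, stood at 5.95 in every array, above no more than 6.5% of the probe sets, while the lipoxygenase gene LOXB (above at least 97.3%), HPL (89.6%) and the brightest of the 3 Psy1 probe sets (85.2%) were among the bright ones. The others lay below the middle of every array: ACS2 (above at most 8.8%), ACS4 (26.3%), E8 (38.8%), Cel2 (42.4%) and EXP1 (45.1%). The markers thus did not settle the stage of the fruit, which is taken from its label. Signals of different probe sets depend on their probes, so such percentiles place a signal within its array and do not rank the genes by transcript number. No seed marker was matched by symbol.

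None of the regulators passed the test between drought and control fruit. All 4 had lower means in drought, as did 50.8% of all tested probe sets. The log2 differences were -0.14 for RIN, -0.018 for TDR4, -0.0043 for NOR and -3.4e-06 for TAGL1. In RIN and TDR4 every drought array lay below every control array, whereas in NOR and TAGL1 the groups overlapped. At a limma adjusted p under 0.05, 0 of 4 were called, against 0.762% of all tested probe sets. At an unadjusted limma p under 0.05 it was 1 of 4, TDR4, against 25% of all. Drought arrays lay wholly below control arrays in 2 of 4, against 14.3% of all tested probe sets. In whole fruit, fewer cells that express a gene and less of its RNA per cell cannot be told apart.

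RIN (gene ID 543708) showed the widest spread of the 4 genes. Its values were 5.934, 5.943 and 5.947 in drought fruit, against 6.201, 6.039 and 6.005 in control fruit. The 3 drought arrays lay within 0.012 of each other, while control replicate 1 lay well above the other controls. The means were 5.94 ± 0.0063 in drought and 6.08 ± 0.10 in control (SD, n = 3 each). The difference was -0.14 ± 0.058 (SE), with a 95% interval from -0.30 to 0.016 (limma adjusted p = 0.232). Read as a log2 ratio, the drought mean was 90.7% of the control mean. An exact permutation test over the 6 arrays gave p = 0.10, the smallest that 3 against 3 allows in a two-sided test. The nearest arrays of the 2 groups were 0.058 apart, which is larger than the whole spread within drought and smaller than the spread within control (0.20).

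The size of the RIN difference moved with single control arrays. It was -0.080 ± 0.013 (SE) without control replicate 1, with a limma adjusted p of 0.122, and -0.18 ± 0.057 without control replicate 3, with one of 0.160. RIN gave one of the dimmer signals on the arrays. It lay above 6.0% to 6.4% of the probe sets in drought arrays and above 8.1% to 14.8% in control arrays, under the 25th percentile of all 6. Whether it stood above background was not tested, since detection calls were not used here.

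TDR4 (gene ID 544191) was bright and its groups were separated by a narrow gap. Its values were 10.145, 10.145 and 10.151 in drought fruit, against 10.172, 10.167 and 10.155 in control fruit. Control replicate 3 came within 0.0042 of the highest drought array. The means were 10.15 ± 0.0032 in drought and 10.16 ± 0.0087 in control (SD, n = 3 each). The difference was -0.018 ± 0.0051 (SE), with a 95% interval from -0.031 to -0.0037 (limma adjusted p = 0.143), and the exact permutation p was again 0.10. The drought mean was thus 98.8% of the control mean if the values are log2.

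Without control replicate 3 the TDR4 difference was -0.022 ± 0.0029 (SE), the nearest that leaving out 1 array brought it to the threshold (limma adjusted p = 0.0519). The signal lay above 86.4% to 86.7% of the probe sets in every array. The probe set's name ends in _s_at, by which the array maker marks probes shared by more than 1 transcript. The RefSeq gene table holds the name TDR4 as a synonym of FUL1 under another gene identifier, while the identifier given for this probe set was not matched there. Whether the signal holds other FRUITFULL-class transcripts was not tested.

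NOR (gene ID 778200) did not separate the groups. Its values were 6.773, 6.766 and 6.774 in drought fruit, against 6.803, 6.762 and 6.761 in control fruit. The drought arrays lay between control replicate 1, which was highest of all, and the other controls, which were lowest. The means were 6.77 ± 0.0047 in drought and 6.78 ± 0.024 in control (SD, n = 3 each). The difference was -0.0043 ± 0.013 (SE), with a 95% interval from -0.040 to 0.031 (limma adjusted p = 0.895, exact permutation p = 1). Without control replicate 1 the difference changed sign to 0.0094 ± 0.0033 (SE, adjusted p = 0.257), so its direction rested on that array. NOR lay above 27.0% to 28.0% of the probe sets in every array.

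TAGL1 (gene ID 543841) held the same value on every array to 4 decimals. The drought values were 10.356564, 10.356557 and 10.356568, against 10.356567, 10.356570 and 10.356563 in control fruit. The groups overlapped, and the whole range of 1.3e-05 was under the largest range of the bacterial and phage control probe sets (0.00047). The difference was -3.4e-06 ± 4.2e-06 (SE), with a 95% interval from -1.5e-05 to 7.9e-06 (limma adjusted p = 0.684, exact permutation p = 0.50). The range of TAGL1 was as wide as or wider than that of 17.1% of the tested probe sets, against 98.8% for RIN, 95.4% for NOR and 94.3% for TDR4. Its signal lay above 88.4% to 88.5% of the probe sets.

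**Figure D2:**
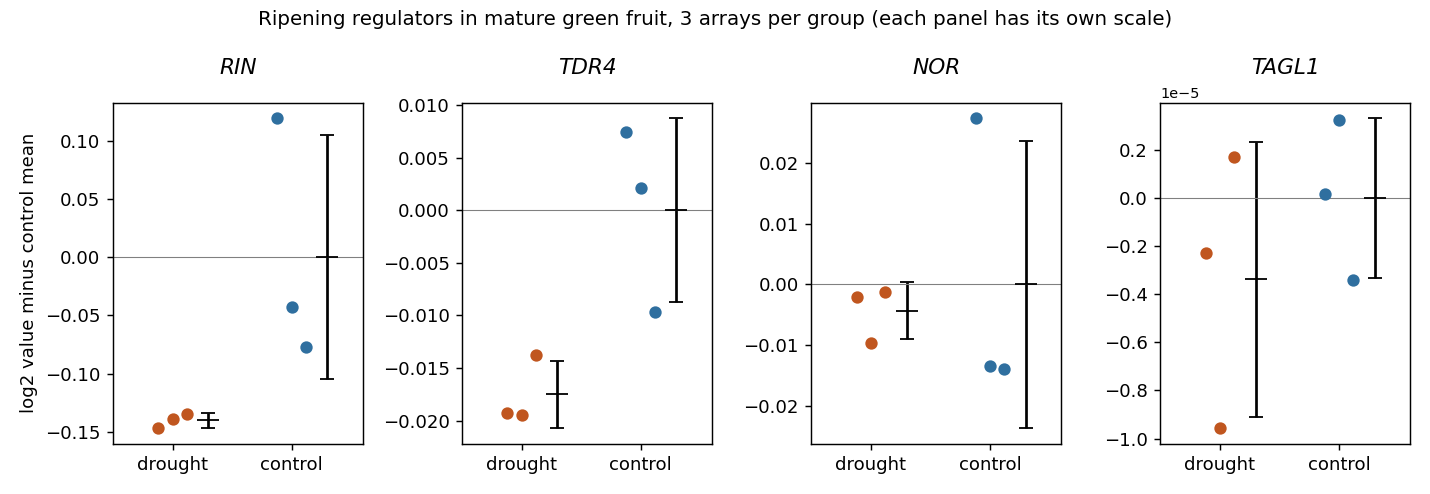
Log2 value of each array minus the control mean (y axis, a separate scale in each panel) for RIN, TDR4, NOR and TAGL1 in 3 drought and 3 control arrays (points), with the mean and SD as bars. The drought points lie below all control points for RIN and TDR4 and overlap them for NOR and TAGL1, and control replicate 1, the leftmost control point, is the highest for RIN, TDR4 and NOR.

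RIN, TDR4 and NOR, but not TAGL1, were highest in control replicate 1, as were 26.3% of all tested probe sets. The SD among control arrays was 16.6 times that among drought arrays for RIN, 5.1 times for NOR, 2.7 times for TDR4 and 0.58 times for TAGL1. A larger SD in control than in drought was also found in 71.3% of all tested probe sets. The part of control replicate 1 in these differences is given by the values without it, which were nearer 0 for RIN (-0.080) and TDR4 (-0.014) and positive for NOR. TAGL1, highest in control replicate 2, differed by -3.3e-06 without control replicate 1, and by -2.8e-07 without drought replicate 2.

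**Figure D3:**
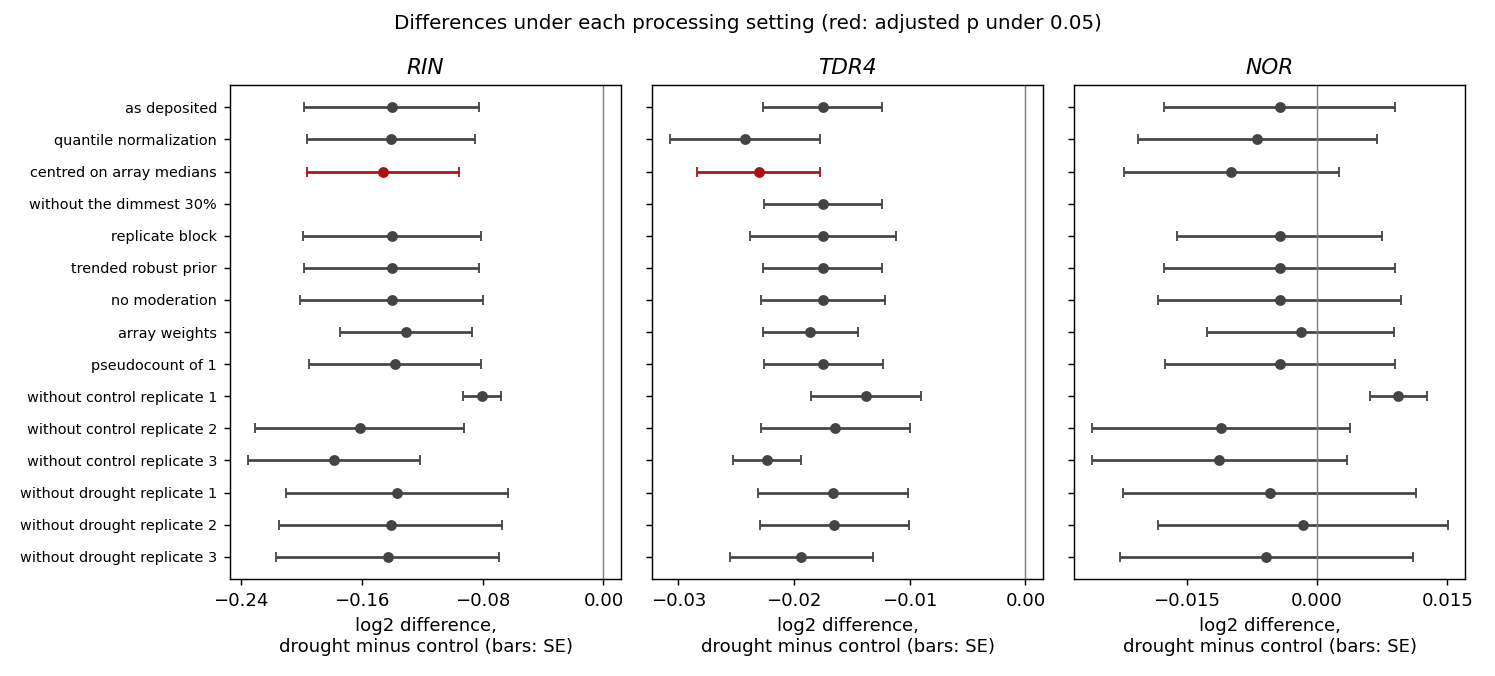
Log2 difference between drought and control (x axis, with SE as bars) for RIN, TDR4 and NOR under each processing setting (rows), red where the limma adjusted p was under 0.05. RIN and TDR4 stay below 0 in every setting run and pass only after each array is centred on its median, where 93.1% of all tested probe sets pass, and NOR lies above 0 without control replicate 1.

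Several other MADS-box genes also lay wholly lower in drought fruit, by small amounts, and none passed. Of 7 such genes found by symbol or synonym, 0 were called by limma (0.762% of all tested probe sets were), 4 had an unadjusted p under 0.05 (25% of all) and 6 had lower means in drought (50.8% of all). In 4 of them all drought arrays lay below all control arrays, against 14.3% of all tested probe sets, and in 0 of 7 did they lie above, against 20.5%. The median difference of the 7 genes was -0.0022, against -1.1e-07 over all tested probe sets. After quantile normalization, 5 of the 7 were separated downward, against 34.3% of all tested probe sets, and after centring 6 were, against 91.7%.

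TDR8, a MADS-box gene, came nearest to a call. Its values were 8.86, 8.88 and 8.87 in drought fruit, against 8.95, 8.97 and 8.94 in control fruit. The groups were far apart compared with the spread within each. Its limma adjusted p was 0.0531 for a difference of -0.083 ± 0.0094 (SE). The difference was -0.088 without control replicate 3 (adjusted p = 0.0436) and -0.075 without control replicate 2 (adjusted p = 0.117).

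MADS1, which encodes a SEPALLATA-class protein known to hold back ripening in tomato, stood at 9.719, 9.719 and 9.723 in drought fruit and at 9.734, 9.741 and 9.732 in control fruit. Its difference was -0.015 ± 0.0028 (SE, limma adjusted p = 0.0753). The groups did not overlap, and leaving out any single array kept the difference between -0.017 and -0.012. AG1, the tomato AGAMOUS gene of stamen and carpel identity, differed by -0.0028 (adjusted p = 0.131), and TDR6, a petal and stamen identity gene, by -0.0022 (adjusted p = 0.121), both with separated groups.

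The other MADS-box genes overlapped between groups. AGL11, an ovule and seed coat identity gene, was the one with a higher mean in drought, at 8.992, 8.989 and 8.985 against 8.953, 8.962 and 8.986 in control fruit. Its difference was 0.021 ± 0.0098 (SE, limma adjusted p = 0.267), and control replicate 3 lay within the drought values. Without that array the difference was 0.031 ± 0.0040 (SE, limma adjusted p = 0.0507). TPI, a PISTILLATA-class floral gene, and TDR5, a SEPALLATA-class gene carried in the annotation as LOC543885, differed by -5.7e-06 and -2.3e-06, sizes under the largest range of the bacterial and phage control probe sets.

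**Figure D4:**
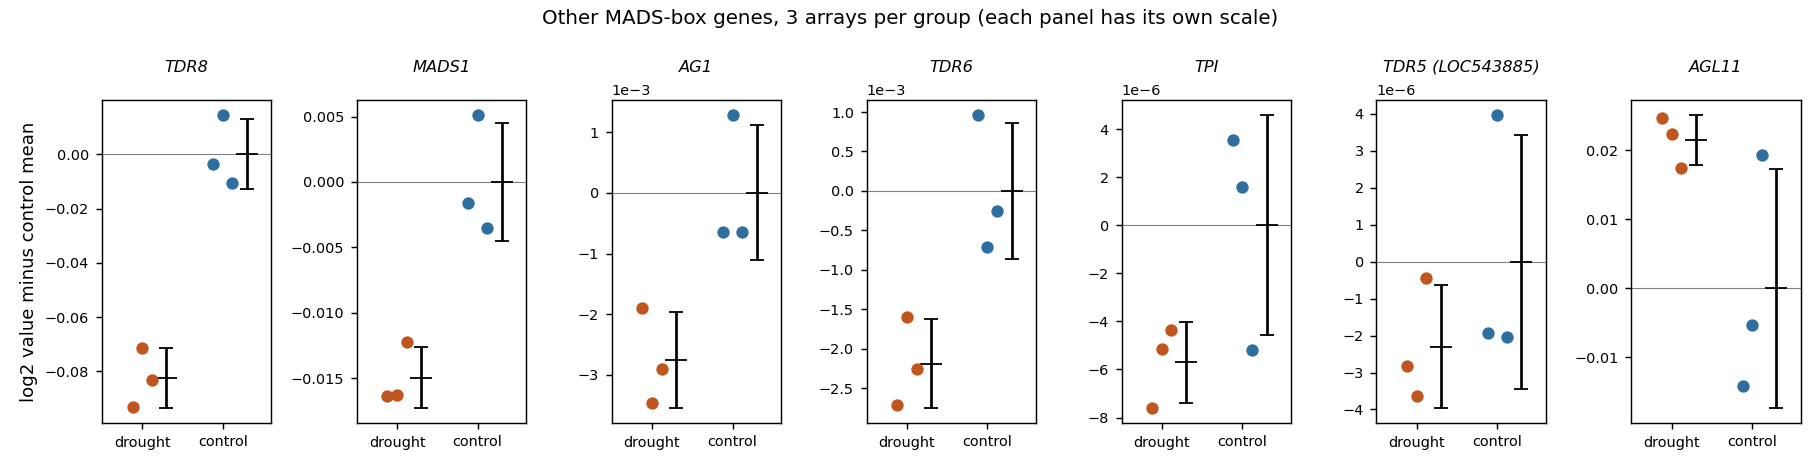
Log2 value of each array minus the control mean (y axis, a separate scale in each panel) for 7 other MADS-box genes in 3 drought and 3 control arrays (points), with the mean and SD as bars. Drought points lie wholly below control points for TDR8, MADS1, AG1 and TDR6 and overlap them for TPI, TDR5 and AGL11.

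Of the other NAC genes, 2 were found, and both overlapped between groups with lower means in drought. Lower means were found in 50.8% of all tested probe sets. NAC1 stood at 7.12, 7.12 and 7.15 in drought fruit, against 7.30, 7.17 and 7.13 in control fruit (-0.069 ± 0.048, SE, limma adjusted p = 0.441). As with NOR, control replicate 1 was the highest array, and without it the difference was -0.021. JA2 differed by -0.020 ± 0.018 (SE, adjusted p = 0.568). Leaving out control replicate 1 made this -0.0065, and leaving out control replicate 2 made it -0.037. By limma 0 of the 2 were called and 0 had an unadjusted p under 0.05, against 0.762% and 25% of all tested probe sets.

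Other regulators of ripening and fruit greening did not pass in either direction. Of 12 found, 0 were called by limma and 4 had an unadjusted p under 0.05, against 0.762% and 25% of all tested probe sets. Means in drought were higher in 6 and lower in 6, against 50.8% lower over all. Drought arrays lay below all control arrays in 2 and above them in 3, against 14.3% and 20.5% of all. Of these, DET1 (-3.9e-05), DDB1 and CUL4 (2.2e-05) differed by less than the largest range of the bacterial and phage control probe sets (0.00047). EIL1 differed by barely more, and EIL2 by more. The median difference was -8.5e-06, and the widest was that of HY5, a light-signalling regulator (-0.023 ± 0.019, SE, adjusted p = 0.517), with overlapping groups and a value of -0.0045 without control replicate 1. EIL2, of ethylene signalling, was separated upward (0.0040, adjusted p = 0.191). DDB1, the HIGH PIGMENT gene that limits plastid development, had the smallest p, with a difference of 5.1e-05 (adjusted p = 0.0598) that turned negative under quantile normalization and under centring, as did that of EIL2. The ethylene response gene EIL1 differed by -0.00049 (adjusted p = 0.10).

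Genes reported as RIN targets in tomato fruit did not pass either. Of 14 found, 0 were called by limma and 1 had an unadjusted p under 0.05 (0.762% and 25% of all tested probe sets). Means in drought were higher in 5 and lower in 9, against 50.8% lower over all. Drought arrays lay below all control arrays in 1 and above them in 2, against 14.3% and 20.5% of all. Of these, PG2 (-2.1e-06) and Man4 (2.3e-06) differed by less than the largest range of the bacterial and phage control probe sets (0.00047), and TBG4 by more. The median difference was -6.3e-05. TBG4, a galactosidase gene of cell wall breakdown, had the smallest p of the list, with a difference of 0.0019 (adjusted p = 0.151), and turned negative under both of those scalings. HPL, for a hydroperoxide lyase of aroma formation, differed by -9.6e-05 (adjusted p = 0.237). LOC544279, matched by the synonym ETR3, was on this list and also among the other regulators.

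Marker lists were read beside these values. The mean level of the 3 epidermis and cuticle genes was 9.774 to 9.780 in drought arrays and 9.784 to 9.791 in control arrays, so that this list was lower in the same arrays as RIN and TDR4. Its members TSW12 (-0.020, limma adjusted p = 0.0636) and ltpg1 (-0.0051, adjusted p = 0.123), both lipid transfer protein genes, were separated, as were 14.3% of all tested probe sets in that direction. By limma 0 of 3 were called and 2 had an unadjusted p under 0.05, against 0.762% and 25% of all. The part of a change in epidermis in the values of RIN and TDR4 was not tested. The mean level of the 3 green tissue genes ran from 9.164 to 9.238 in drought and from 9.188 to 9.259 in control, and that of the 9 ripe fruit genes from 8.142 to 8.150 in drought and from 8.141 to 8.168 in control. Both lists overlapped between groups, with 0 called by limma and 0 at an unadjusted p under 0.05. All of the ripe fruit genes except LOXB were also on the list of reported RIN targets, so those results are not separate. CAB5 (-0.022) and CAB6A (-0.00061) had the smallest p-values of the green tissue genes (adjusted p = 0.895 and 0.929), and ACS4, an ethylene synthesis gene, differed by -0.00040 among the ripe fruit genes (adjusted p = 0.416).

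Genes with the most similar pattern to each regulator were taken by Pearson's r over the 6 arrays among 73 named probe sets with a range of at least 0.1. These correlations describe 6 arrays that share the same group contrast. The highest array was control replicate 1 for RIN, TDR4 and NOR and control replicate 2 for TAGL1. The part of a single high array in each r was not tested. For RIN the most similar were the lipoxygenase gene TomloxE (r = 0.9968) and a gene carried in the annotation as LOC543815 (0.9888). Next came AOS (0.9759), an allene oxide synthase gene of jasmonate synthesis. TomloxE stood at 7.58, 7.58 and 7.60 in drought fruit, against 7.98, 7.76 and 7.70 in control fruit. As in RIN, the drought arrays lay close together below all controls, and control replicate 1 was highest (-0.23 ± 0.083, SE, limma adjusted p = 0.196).

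For NOR the most similar gene was E8, an ethylene-responsive ripening gene (r = 0.9923), followed by NAC1 (0.8721) and AOS (0.8323). E8 stood at 7.20, 7.16 and 7.23 in drought fruit, against 7.36, 7.15 and 7.15 in control fruit. The drought arrays again lay between control replicate 1 and the other controls, and the difference was -0.023 ± 0.069 (SE, limma adjusted p = 0.892), turning positive without control replicate 1. For TDR4 they were the ACC synthase gene ACS1A (r = 0.9838) and 2 genes carried in the annotation as LOC543701 (0.9804) and LOC544158 (0.9781). ACS1A differed by -0.14 ± 0.054 (SE, adjusted p = 0.215), with 1 control array below the highest drought array. Without control replicate 3 it differed by -0.19 (limma adjusted p = 0.0545). LOC544158 differed by -0.32 (limma adjusted p = 0.106). Leaving out control replicate 3 made this -0.40 (adjusted p = 0.0191), a setting in which 5.41% of all tested probe sets were called.

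For TAGL1 they were the xyloglucan endotransglucosylase gene XTH3 (r = 0.896), CBF1 (0.8716), a cold-response regulator, and the auxin-response repressor gene IAA3 (0.8606). The match to TAGL1 rests on differences of 1.3e-05 in all, while XTH3 ranged over 0.96 on the log2 scale.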

How the data were processed

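Biotin-labelled cRNA made from 100 ng of total RNA was hybridized to 1-colour arrays, per the labels' protocols. The deposited values are normalized probe set summaries on what is taken as a log2 scale, since they run from 5.46 to 15.8. The authors' background correction, normalization and summary methods are not given in the sources used here. Of 10209 probe sets, 108 of the array maker's controls were left out. Symbols came from the platform annotation: 909 tested probe sets had 1 symbol, 0 several and 9192 none, and 885 had an identifier in the RefSeq gene table. Neither gave sequences, and no coordinates are printed because no build is named.

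The comparison of drought against control used limma 3.58.1 under R 4.3.3 (lmFit, eBayes, two-sided, Benjamini-Hochberg over all tested probe sets, threshold 0.05). The fit was run on simulated data as a check of the code. Its recovery of differences as small as those reported here is not given. Exact permutation tests used all 20 regroupings. List genes were matched by symbol or synonym, 1 probe set per gene, the brightest, and described without a set test. Genes were named by rule: the 4 regulators, the 2 smallest p-values of each list, and the 3 most similar patterns for each regulator. All other MADS-box genes, and list members beyond that rule, were named after their values were seen. Members and lists were chosen with earlier results of these data known. The number of arrays limits the precision. The labels do not say whether replicate numbers pair the arrays. All 15 array pairs differed by over 0.1 in at least 47 probe sets.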

Additional observations from a re-analysis of the deposited data

How the results depend on the processing

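RIN, TDR4 and TAGL1 had lower means in drought under every alternative run, and the adjusted p passed only after centring each array on its median (-0.15, adjusted p = 0.0300, for RIN; -0.023 and 0.0201 for TDR4; -0.0055 and 0.0201 for TAGL1). Centring shifts the median of all differences to -0.0055 and calls 9406 probe sets, 9192 of them lower, since the array medians differed by up to 0.0098 while most probe sets differed by far less. Outside centring, adjusted p was at least 0.122 for RIN, 0.257 for NOR, 0.0519 for TDR4 and 0.169 for TAGL1. That value of TAGL1 came after quantile normalization, where its difference was -0.0078. NOR turned to 0.0094 without control replicate 1. Over the arrays left out in turn, the difference ran from -0.18 to -0.080 for RIN, -0.011 to 0.0094 for NOR, -0.022 to -0.014 for TDR4 and -5.9e-06 to -2.8e-07 for TAGL1. RIN and NOR were among the dimmest 30% of probe sets and could not be fitted without these. The 77 calls over all probe sets became 0 after quantile normalization and 0 with the replicate block, 7 without moderation and 391 with array weights, and ran from 0 to 546 over the arrays left out, the highest without control replicate 3. The cause was not tested. Deviations from the group mean correlated at -0.092, -0.023 and -0.11 between arrays of the same number. Between arrays of different numbers the correlations ran from -0.049 to 0.12. Since the deviations sum to 0 within each group of 3 arrays, these correlations cannot decide whether the numbers mark paired arrays. With the replicate block, limma adjusted p was 0.393 for RIN (-0.14), 0.909 for NOR (-0.0043), 0.346 for TDR4 (-0.018) and 0.824 for TAGL1 (-3.4e-06).

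Centring called 93.1% of all tested probe sets. It called 6 of 7 other MADS-box genes, 10 of 12 other regulators and 9 of 14 reported RIN targets. Also called were 6 of 9 ripe fruit markers and 3 of 3 epidermis markers, but 0 of 2 other NAC genes and 0 of 3 green tissue markers. With array weights 1 MADS-box gene, TDR8, and 1 epidermis marker, TSW12, were called, against 3.87% of all tested probe sets. Without control replicate 3 TDR8 was called again, against 5.41% of all. The MADS-box count thus ran from 0 to 1 over the arrays left out. After quantile normalization and after centring, DDB1 turned to -0.0031 and -0.0055, TBG4 to -0.0022 and -0.0036, and EIL2 to -0.0033 and -0.0015. Over the arrays left out, CAB5 ran from -0.061 to 0.027 and CAB6A from -0.0017 to 0.0013, both positive without control replicate 3 or drought replicate 3, and CAB6A was 0.00032 with array weights. CAB4 ran from -0.012 to 0.013 over the arrays left out and was 0.0031 with array weights, E8 ran from -0.058 to 0.046, and PG2 was 0.00018 after quantile normalization. A pseudocount of 1 and a trended robust prior changed no call or direction among the regulators and the other genes named.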
